A study of Homo sapiens with 4 samples.

Results

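The interferon regulatory factors (IRFs) are transcription factors that share a helix-turn-helix DNA-binding domain with a repeat of tryptophans. Of the 37515 genes counted in Caco-2 cells, 8 genes of this family were followed across 4 RNA-seq libraries, namely IRF1, IRF2, IRF3, IRF4, IRF5, IRF7, IRF8 and IRF9. They were chosen by name, as the genes whose Ensembl identifier carries the family symbol, and the remaining gene of the family was not analysed here. The Caco-2 line derives from a human colorectal carcinoma and forms an enterocyte-like monolayer on a porous support. The cells had no genetic change made for this experiment and were grown in transwells for 15 days. In 1 group of 2 libraries the lower compartment held IFNγ at 60 ng/ml for 3 h, and in the other group of 2 libraries the cells were unstimulated at 0 h. The effect of IFNγ and that of the elapsed 3 h cannot be told apart in this design. Both replicates of a group come from the same cell line, and nothing in the labels says whether they were separate cultures, so that p-values measure the spread between these libraries, which may be technical.

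IFNγ binds a receptor on the cell surface, and its JAK kinases activate STAT dimers that bind a gamma-activated site (GAS) in DNA. IRF1 is among the earliest genes transcribed in this way, and IRF1 protein then binds the interferon-stimulated response element of further genes, such as those for antigen presentation. IRF2 binds the same element and is known as an antagonist of IRF1. IRF3 and IRF7 lie inactive in the cytoplasm until kinases such as TBK1 phosphorylate them downstream of viral sensors, and both then drive type I and type III interferon genes. IRF5 acts downstream of Toll-like receptors. IRF4 and IRF8 are best known from lymphoid and myeloid cells, where they bind composite elements together with Ets or BATF family partners. IRF9 is the DNA-binding subunit of ISGF3, in which it is held by a pair of STAT proteins, STAT2 being one of them.

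The depth was 7171455 to 10365346 counts per library, at which 3 counts correspond to 0.289 to 0.418 CPM, the reads counted on a gene scaled to a common library size. Replicates of a group differed beyond sampling noise, with a chi-square per degree of freedom of 6.76 between the unstimulated libraries and 7.75 between the IFNγ libraries. After edgeR's filter on low counts 14820 genes were tested, and a call of differential expression required both an adjusted p-value below 0.05 and a log2 fold change beyond 1 in either direction. By this rule 2.88% of the tested genes were higher and 4.40% lower after IFNγ, or 427 and 652 genes. This balance turned after a loess correction of each library for gene GC content and length, with 410 genes called higher and 307 lower. With the adjusted p-value alone these shares were 9.02% higher and 11.0% lower. On a list of 10 known IFNγ-induced genes outside the family all 10 had a positive log2 fold change and 9 were called, which is the direction that the labels give.

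The promoters of IRF1 and IRF9 are shown because both hold a GAS, the element through which IFNγ acts on early genes. Each line gives the 250 bases before the start of transcription in RefSeq on GRCh38.p14, 5′ to 3′ on the gene's own strand, and capitals mark the GAS letters TTCNNNGAA. The IRF1 stretch is chr5:132490774-132491023 on the minus strand and that of IRF9 is chr14:24161015-24161264 on the plus strand.
IRF1: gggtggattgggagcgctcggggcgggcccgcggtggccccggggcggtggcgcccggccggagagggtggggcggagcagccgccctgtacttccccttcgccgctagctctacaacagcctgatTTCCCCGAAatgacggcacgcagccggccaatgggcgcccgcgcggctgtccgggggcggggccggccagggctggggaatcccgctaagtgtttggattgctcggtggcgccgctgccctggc
IRF9: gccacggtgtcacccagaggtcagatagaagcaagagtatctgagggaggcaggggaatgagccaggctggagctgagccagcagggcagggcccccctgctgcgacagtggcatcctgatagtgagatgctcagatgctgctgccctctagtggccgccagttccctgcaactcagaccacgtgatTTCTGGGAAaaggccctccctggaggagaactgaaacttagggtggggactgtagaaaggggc
The match in IRF1 is TTCCCCGAA and begins 124 bases before the start, and the match in IRF9 is TTCTGGGAA and begins 63 bases before it. A match to TTCNNNGAA, which reads the same on both strands, was held by 7.66% of 35116 RefSeq windows of 300 bases, each from 250 bases before a start to 50 after it. Neither window held GAAANNGAA, a core of the IRF binding element, or GGAANNGAA, a core of the Ets-IRF composite element, on either strand. Those letters were held by 8.11% and 7.79% of all windows. RefSeq windows were matched for 5 of the 8 genes, and IRF2, IRF3 and IRF7 had none in the table used here. Both windows listed for IRF8 start at sites 3668 and 3853 bases inside the gene and held none of the 3 patterns, so they say nothing on the promoter at the gene's first base. The IRF4 window held none of them either. Among 4 windows of IRF5, whose starts all lie inside the gene, 1 held GAAANNGAA and another held GGAANNGAA, with the GAAANNGAA match lying across the start site. The matches are letters in a window, and binding was not measured.

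After 3 h of IFNγ, 2 of the 7 tested IRF genes were called differentially expressed, and both were higher, against 2.88% of all tested genes. IRF1 rose 58.0-fold and IRF8 rose 2.15-fold. IRF7 was 1.82-fold higher and passed the adjusted p-value but not the fold change threshold, so that 3 members were higher on the adjusted p-value alone, where 9.02% of all tested genes were. None of the 7 was lower by either rule, where 4.40% and 11.0% of all tested genes were. IRF2 and IRF5 had lower CPM in both IFNγ libraries than in either unstimulated library. Both IFNγ libraries lay above both unstimulated ones in 3 members and below them in 2, and they overlapped in the other two tested members. Over all tested genes, 31.6% lay above in this way and 30.8% below. The counts of members without overlap are near this background in both directions. In bulk RNA, a change in the number of cells that express a gene and a change in RNA per cell cannot be told apart.

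**Figure D1:**
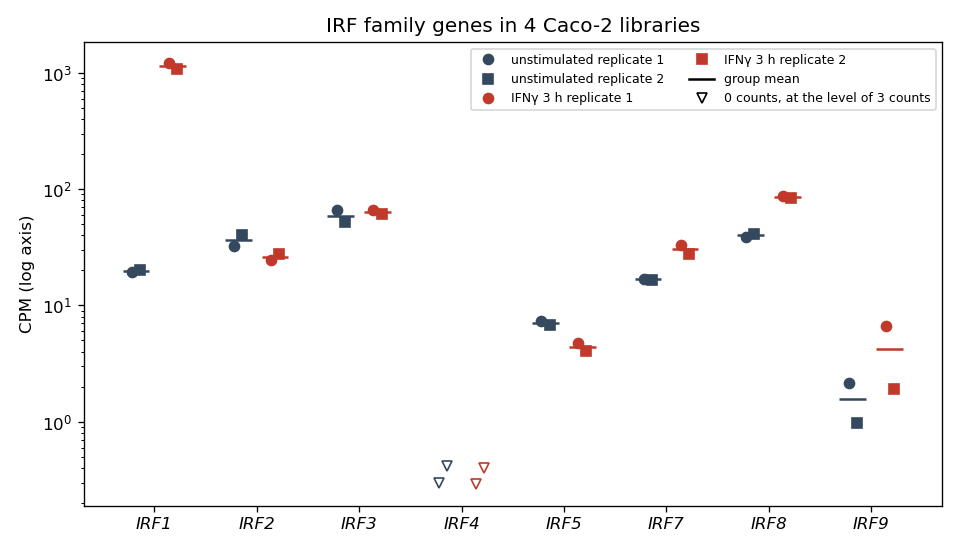
CPM (log axis) of the 8 IRF genes in each of the 4 Caco-2 libraries, with circles for replicate 1, squares for replicate 2 and a bar at the mean of each group. The IFNγ libraries sit at 1085 and 1201 CPM for IRF1 against 19.3 and 20.2 unstimulated, and IRF4 is drawn as open triangles at the level of 3 counts because it had 0 counts throughout.

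IRF1 (ENSG00000125347) was the member with the largest change. The unstimulated libraries gave it 198 and 144 counts, and the IFNγ libraries 12348 and 7949 counts. This is 19.7 ± 0.633 CPM (SD, n = 2) unstimulated and 1143 ± 82.4 CPM (SD, n = 2) after IFNγ, with no overlap between the groups. The log2 fold change was 5.86 (SE 0.139, adjusted p = 7.43e-06), with a 95% interval from 46.3-fold to 72.7-fold, and it ranked 8 among the 14820 tested genes by size of increase. The main transcript of IRF1 lies at chr5:131817301-131826465 of GRCh37 on the minus strand, in the GENCODE 44 annotation mapped to that build. Of its exons, 580 bases are also exon of IRF1-AS1, an antisense transcript on the plus strand. IRF1-AS1 had 17 and 5 counts unstimulated and 81 and 17 counts after IFNγ, with a log2 fold change of 2.07 (SE 0.650) and an adjusted p of 0.0627. Whether reads were assigned by strand is not given in the sources used here, and the highest IRF1-AS1 count is small beside that of IRF1.

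IRF2 (ENSG00000168310), which binds the sites of IRF1 and antagonises it, moved the other way without passing the test. Its counts were 332 and 288 unstimulated and 253 and 202 after IFNγ, or 36.3 ± 5.67 CPM and 26.1 ± 2.09 CPM (SD, n = 2 each). Both IFNγ libraries were below both unstimulated ones. The log2 fold change was -0.48 (SE 0.165, adjusted p = 0.0831), and its 95% interval ran from -0.86 to -0.09. With counts scaled to the merged exon length of each gene, the ratio of IRF1 to IRF2 was 0.327 and 0.274 in the unstimulated libraries and 26.8 and 21.6 in the IFNγ libraries. IRF1 was thus the lower of the pair in both unstimulated libraries on this scale and the higher in both IFNγ libraries. The unstimulated order depends on the length used, since with the mean transcript length the ratio was 1.85 and 1.55 there. The log2 ratio differed by 6.33 between the groups. The length of a gene is the same in every library and cancels from this difference. With 2 libraries in each group an exact permutation test, two-sided, cannot give a p below 0.33. A divergent transcript that starts 252 bases from IRF2, IRF2-DT, is named after its values were seen. It had 14 and 8 counts unstimulated and 29 and 16 after IFNγ, with a log2 fold change of 1.00 (SE 0.396) that did not pass the test (adjusted p = 0.117).

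IRF8 (ENSG00000140968), best known as a factor of myeloid cells and B cells, was measured in these epithelial cells before stimulation. Unstimulated cells gave 399 and 295 counts, and IFNγ-treated cells 903 and 620. These are 38.9 and 41.3 CPM unstimulated and 87.8 and 84.6 CPM after IFNγ, so that the groups lie far apart beside the spread within each. The log2 fold change was 1.11 (SE 0.122, adjusted p = 0.00211), with a 95% interval from 1.77-fold to 2.63-fold. The lower end of the interval, 0.82 on the log2 scale, is under the threshold of 1. IRF4 (ENSG00000137265), the close relative of IRF8 in lymphoid cells, had 0 counts in all 4 libraries, which allows a level of up to 0.289 to 0.418 CPM by counting error only.

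Because IRF8 is a marker of blood cells, a list of blood cell markers was read beside it. Of 12 markers 11 had a row and 4 were tested. None was called, beside 2.88% of all tested genes higher and 4.40% lower. Of the 4 tested, 2 had a positive and 2 a negative log2 fold change. CD14 had 36 and 34 counts unstimulated and 59 and 65 after IFNγ, with a log2 fold change of 0.82 (SE 0.324, adjusted p = 0.116). PTPRC, the pan-leukocyte surface phosphatase, had 0 and 0 counts unstimulated and 2 and 0 after IFNγ, and SPI1, the myeloid Ets factor that partners IRF8, had 0 in all 4. The summed level of the list was 16.2 to 18.5 CPM unstimulated and 22.2 to 24.6 CPM after IFNγ, most of it from CSF1R and CD14. Neither this sum nor the CPM of IRF8 is scaled for gene length, so their levels are not compared. The cell source of the IRF8 reads was not tested. Markers of intestinal epithelium were abundant, with all 12 tested and a summed level of 8462 to 10220 CPM, among them VIL1, which encodes villin of the brush border, at 1579 ± 4.36 CPM unstimulated and 1815 ± 3.15 CPM after IFNγ (SD, n = 2 each). The homeobox factor CDX2 was called higher on that list with a log2 fold change of 1.20 (SE 0.105, adjusted p = 0.00117), and sucrase-isomaltase (SI) was called lower with -1.13 (SE 0.266, adjusted p = 0.0256). Neither call held with the GC and length trend removed, where the log2 fold changes were 0.99 and -0.68. That of SI was also lost with DESeq2, at an about equal log2 fold change of -1.14, and without replicate 2 of the IFNγ group, at -0.76.

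Of the members that act downstream of viral and Toll-like sensors, IRF7 passed the adjusted p-value, and IRF3 and IRF5 did not. IRF7 (ENSG00000185507), the factor that amplifies type I interferon output, had 175 and 118 counts unstimulated and 343 and 203 after IFNγ. Its level was 17.0 and 16.5 CPM unstimulated and 33.4 and 27.7 CPM after IFNγ, without overlap. The log2 fold change of 0.87 (SE 0.163, adjusted p = 0.0113) had a 95% interval from 0.48 to 1.25. IRF7 is the most GC-rich member, with 66.8% GC against a median of 47.9% over tested genes, and across genes the log2 fold change rose with GC content (Spearman rho 0.431 over 14518 genes, which are not independent). With the trend of GC content and length removed the log2 fold change of IRF7 was 0.60.

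IRF3 (ENSG00000126456), the constitutive factor behind early interferon beta, had 677 and 374 counts unstimulated and 685 and 451 after IFNγ. The libraries overlapped, at 65.9 and 52.4 CPM unstimulated and 66.6 and 61.5 CPM after IFNγ. Its log2 fold change was 0.11 (SE 0.149, adjusted p = 0.631), with a 95% interval from -0.24 to 0.46, and became -0.11 with the GC and length trend removed. These libraries do not tell apart changes of IRF3 within that interval. The exons of IRF3 share 227 bases with BCL2L12 on the opposite strand, so reads there may have been assigned to either gene or to neither.

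IRF5 (ENSG00000128604), a factor of Toll-like receptor signaling, was low, with 76 and 48 counts unstimulated and 49 and 30 after IFNγ. The levels of 7.40 and 6.73 CPM unstimulated exceeded the 4.77 and 4.09 CPM after IFNγ. The log2 fold change of -0.67 (SE 0.255) did not pass the test (adjusted p = 0.107), and its 95% interval ran from -1.26 to -0.07.

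**Figure D2:**
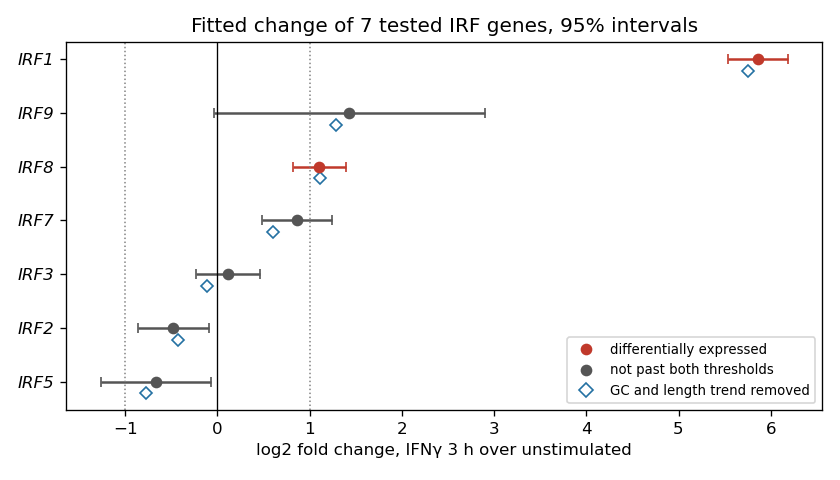
Log2 fold change (IFNγ 3 h over unstimulated) of the 7 tested IRF genes from edgeR, with 95% intervals, dotted lines at the fold change threshold and open diamonds for the value after removal of the GC and length trend. Red marks IRF1 (5.86) and IRF8 (1.11), which were called, and the interval of IRF9 runs from -0.04 to 2.90.

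IRF9 (ENSG00000213928), the DNA-binding subunit of ISGF3, did not pass the test. It had 22 and 7 counts unstimulated and 68 and 14 after IFNγ. At 2.14 and 0.981 CPM unstimulated and 6.61 and 1.91 CPM after IFNγ, replicate 1 was above replicate 2 in both groups, and the unstimulated replicate 1 was above the IFNγ replicate 2. The log2 fold change was 1.43 (SE 0.627, adjusted p = 0.151), the interval was the widest of the 7 members, from -0.04 to 2.90, and single libraries decided the value. It was 0.22 without replicate 1 of the IFNγ group and 1.99 without replicate 2 of that group, where it was called. The count itself is uncertain, since 1513 of the 1626 exon bases of the main IRF9 transcript are also exon of ENSG00000259529, which lies on the same strand and has a row of its own. That gene had 11 and 1 counts unstimulated and 40 and 6 after IFNγ and was not tested. Reads that fall in both genes may have been counted for neither, so the level of IRF9 here may be too low. Of the 16 tested genes within 100 kb of IRF9 none was called, beside 2.88% of all tested genes higher and 4.40% lower. REC8, a meiotic cohesin subunit 5.29 kb from IRF9, is among them and is named after its values were seen. It had 34 and 7 counts unstimulated and 181 and 35 after IFNγ, again with replicate 1 the higher in both groups, and a log2 fold change of 2.32 (SE 0.683) with an adjusted p of 0.0520.

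Since counts grow with transcript length, members were compared with each other only as CPM per kb of merged exons. Unstimulated, IRF3 was the highest at 15.6 ± 2.52 CPM per kb, followed by IRF7 at 6.43 ± 0.138, IRF2 at 5.41 ± 0.844, IRF8 at 5.11 ± 0.223, IRF1 at 1.61 ± 0.0516, IRF5 at 0.995 ± 0.0673 and IRF9 at 0.241 ± 0.127 (SD, n = 2 each). IRF2 and IRF8 overlapped in this order, and the order of IRF7, IRF2 and IRF8 changed with the transcript length used. IRF1 ranked 5 unstimulated with 3 of the 4 lengths and 2 with the mean transcript length, at 29.0 CPM per kb on that scale. After IFNγ IRF1 was the highest at 93.2 ± 6.72 CPM per kb, followed by IRF3 at 16.9 ± 0.949, IRF7 at 11.7 ± 1.53 and IRF8 at 11.0 ± 0.292 (SD, n = 2 each), of which IRF7 and IRF8 overlapped. IRF2 followed at 3.88 ± 0.311, and IRF9 at 0.659 ± 0.514 overlapped with IRF5 at 0.624 ± 0.0670 (SD, n = 2 each). IRF1 was the highest and IRF3 the next after IFNγ under each of the 4 transcript lengths used.

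As a share of the family's summed CPM per kb, IRF1 went from 4.29% and 4.82% in the unstimulated libraries to 67.6% and 67.5% in the IFNγ libraries. The share of IRF3 went from 47.5% and 40.4% to 12.1% and 12.4%, although its own level overlapped between the groups. The share of IRF8 went from 13.5% and 15.4% to 7.73% and 8.23% while its level rose. The family total was 36.6 and 34.2 CPM per kb unstimulated and 144.8 and 131.0 after IFNγ. With other transcript lengths IRF1 made up 75.5% (main transcript, a length added after the data were seen), 77.9% (longest transcript) or 91.7% (mean of transcripts) of the family after IFNγ. Its unstimulated shares were then 6.14% and 6.81% (main), 7.17% and 7.93% (longest) or 19.1% and 21.1% (mean). The mean length is that of 50 annotated IRF1 transcripts, many of them short.

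**Figure D3:**
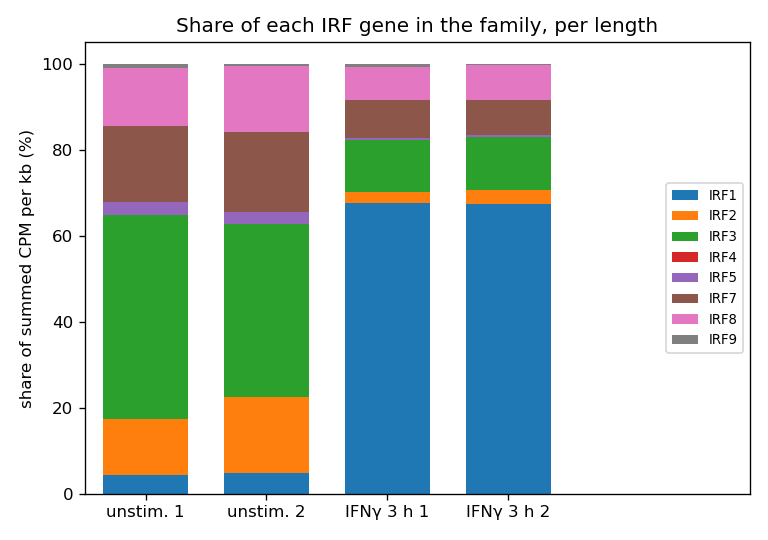
Share of each IRF gene in the family's summed CPM per kb of merged exons (percent, stacked from 0 to 100) in the 4 libraries. IRF3 holds 47.5% and 40.4% of the unstimulated libraries and IRF1 holds 67.6% and 67.5% of the IFNγ libraries, and IRF4 has no height because it had 0 counts.

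Genes that act with the IRFs were read from 4 lists. Among 19 kinases, adaptors and sensors that activate IRF3, IRF5 and IRF7, 18 had a row, 15 were tested and none was called in either direction, where 2.88% and 4.40% of all tested genes were. On the adjusted p-value alone 1 of the 15 was higher and 1 lower, where 9.02% and 11.0% of all tested genes were. MYD88, the adaptor of most Toll-like receptors, was higher with a log2 fold change of 0.96 (SE 0.127, adjusted p = 0.00364). IRAK4, the kinase that MYD88 recruits, was lower with -0.71 (SE 0.187, adjusted p = 0.0371). The median log2 fold change of the list was -0.04 against -0.01 over all tested genes. TBK1, the kinase of IRF3 and IRF7, had 333 and 289 counts unstimulated and 275 and 81 after IFNγ. Its log2 fold change of -0.92 (SE 0.351) had an adjusted p of 0.108, and the IFNγ libraries differed more from each other than the unstimulated ones did.

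Among 13 partners and co-regulators, of which 10 were tested, 1 was called higher, BATF2, and none lower, beside 2.88% and 4.40% of all tested genes. BATF2, a basic leucine zipper factor that associates with IRF1, had 92 and 65 counts unstimulated and 476 and 308 after IFNγ, and its log2 fold change was 2.29 (SE 0.157, adjusted p = 4.69e-04). On the adjusted p-value alone 3 of the 10 were higher and 2 lower, where 9.02% and 11.0% of all tested genes were. The higher ones were BATF2, JUNB, an AP-1 subunit that pairs with BATF proteins, at 0.87 (SE 0.181), and IRF2BP1, a co-repressor of IRF2, at 0.68 (SE 0.160). The lower ones were the paralogs of IRF2BP1, IRF2BP2 at -0.90 (SE 0.116) and IRF2BPL at -0.72 (SE 0.174). IRF2BP2 went from 1456 and 1027 counts to 752 and 590. STAT2, which joins IRF9 in ISGF3, had 887 and 453 counts unstimulated and 1302 and 591 after IFNγ, with a log2 fold change of 0.47 (SE 0.234, adjusted p = 0.199). Of the other listed Ets and BATF factors, SPI1 had 0 counts, BATF and BATF3 had at most 2 in any library, and SPIB had 32 and 16 unstimulated and 31 and 28 after IFNγ. The median log2 fold change of the tested members was 0.34.

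Of 19 genes known as IRF1 targets 14 were tested and 4 were called higher, none lower, beside 2.88% and 4.40% of all tested genes. TAP1, the peptide transporter of antigen presentation, went from 25 and 24 counts to 1344 and 759, with a log2 fold change of 5.36 (SE 0.221, adjusted p = 5.87e-05). PSMB9, a subunit of the immunoproteasome that shares a bidirectional promoter with TAP1, went from 10 and 7 counts to 134 and 67, a log2 fold change of 3.50 (SE 0.341, adjusted p = 0.00150). NOS2, the inducible nitric oxide synthase, had a log2 fold change of 1.54 (SE 0.242, adjusted p = 0.00612) and GBP2, a guanylate-binding GTPase, one of 1.24 (SE 0.160, adjusted p = 0.00345). The median over the 14 was 0.66, and 12 of them were positive. TAP1, PSMB9, GBP2 and SOCS1, which was not called, were also on the list that checked the labels, so they are not separate evidence. Some listed targets stayed at the detection floor. Among them were VCAM1 with 0 counts in all libraries, CXCL10 with 0 and 0 unstimulated and 2 and 1 after IFNγ, and IDO1 with at most 2. Others were well above it and not called, such as B2M at 461 ± 96.7 CPM unstimulated and 500 ± 86.9 CPM after IFNγ (SD, n = 2 each). The log2 fold change of B2M was 0.12 (SE 0.178, adjusted p = 0.675).

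Of 26 genes known as ISGF3 targets 19 were tested and 3 were called higher, none lower, beside 2.88% and 4.40% of all tested genes. All 3 encode antiviral tetratricopeptide proteins of the IFIT family. IFIT5 went from 5 and 9 counts to 160 and 87, with a log2 fold change of 4.05 (SE 0.400, adjusted p = 0.00152). IFIT3 went from 105 and 66 counts to 390 and 198, a log2 fold change of 1.74 (SE 0.211, adjusted p = 0.00288), and IFIT2 from 20 and 15 counts to 72 and 43, a log2 fold change of 1.67 (SE 0.305, adjusted p = 0.0101). IFI35 passed the adjusted p-value alone. The median over the 19 was 0.60, with 17 positive. The count of called members depends on the processing, being 5 with upper quartile scaling, 6 without the filter on low counts and 2 with DESeq2 or at an adjusted p under 0.01, and the log2 fold change of IFIT5 ranged from 3.44 to 4.79 with each library left out. Transcripts of the interferons themselves, some of them products of IRF3 and IRF7 activity, were next to absent among those with a row. Of 13 type I, II and III interferon genes 7 had a row, all of type I or III. The others were not measured. Of the 7 with a row, 6 were at 0 in all libraries, and IFNL1 had a single count of 1 in 1 IFNγ library.

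**Figure D4:**
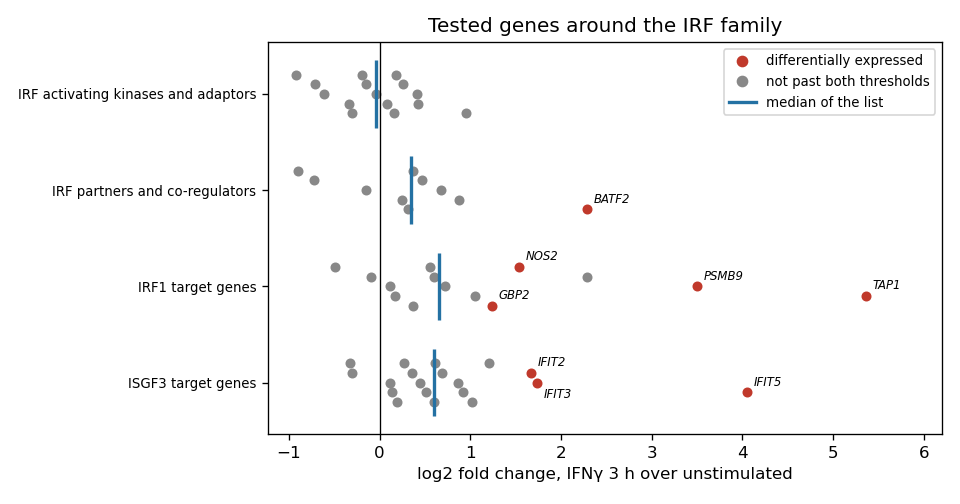
Log2 fold change (IFNγ 3 h over unstimulated) of the tested genes on 4 lists around the IRF family, 1 point per gene, with red for genes that were called and a blue bar at the median of each list (-0.04, 0.34, 0.66 and 0.60 from top to bottom). None of the 15 activating kinases and adaptors is red, against 1 of 10 partners, 4 of 14 IRF1 targets and 3 of 19 ISGF3 targets, all of them higher, beside 2.88% higher among all tested genes.

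Tested genes within 100 kb of the called members were then listed. Near IRF1, 4 neighbors were tested. LINC02863, a non-coding transcript 54.9 kb away, had 1 and 1 counts unstimulated and 13 and 13 after IFNγ and was called higher (adjusted p = 0.0129), a call that was lost without replicate 1 of the unstimulated group, where the log2 fold change was 3.28. RAD50, a DNA double-strand break repair subunit 65.2 kb away, went from 1777 and 1243 counts to 822 and 355. It was called lower, with a log2 fold change of -1.43 (SE 0.216, adjusted p = 0.00545). With the GC and length trend removed its log2 fold change was -1.04, still past the threshold. With each library left out it ranged from -1.85 to -1.14. SLC22A5, the carnitine transporter 86.0 kb away, had a log2 fold change of 0.21 (SE 0.145, adjusted p = 0.344), and IRF1-AS1 is given above. Near IRF8, EMC8 and COX4I1 were tested and neither was called.

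The genes whose centred log2 CPM over the 4 libraries lay closest to that of IRF1 were LINC01749, STEAP4, TAP1, NLRC5 and ETV7, at Euclidean distances of 0.108, 0.585, 0.669, 0.796 and 1.22. LINC01749 had 1 and 1 counts unstimulated and 224 and 143 after IFNγ. STEAP4, a metalloreductase, had 0 and 0 counts unstimulated and 87 and 64 after IFNγ. NLRC5, the transactivator of class I antigen presentation genes, went from 3 and 1 counts to 403 and 132, and ETV7, an Ets factor, from 17 and 12 to 479 and 342. Among the nearest to IRF8 were BAK1, STAT3, TP53RK and ALG2, at distances of 0.0365 to 0.0662. Among them STAT3, the transcription factor of IL-6 signaling, went from 955 and 705 counts to 2222 and 1509. The fitted log2 fold changes of LINC01749 and STEAP4 were 7.32 and 9.24, against 5.86 for IRF1. Those of TAP1, NLRC5 and ETV7 were 5.36, 6.89 and 4.79. The prior count of 2 in the log2 CPM shrinks the profiles of genes with few unstimulated counts. With 4 libraries these distances mostly follow the size of this shrunken difference between the groups and are a description only.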

How the data were processed

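RNA was isolated from the Caco-2 cells with a mirVana kit, and libraries were made from 1 µg with a TruSeq RNA kit. For each of the 4 libraries the authors deposited a raw count per Ensembl gene. The submitters' processing notes name HISAT 0.5.1 and HTSeq 0.6.1p1, while the build, annotation and strand setting are not given in the sources used here. Counts were fitted with edgeR 4.0.16 in R 4.3.3, with TMM scaling, the default filter on low counts (filterByExpr, minimum count of 10) and a quasi-likelihood test of the 2 groups, without a block. P-values were adjusted by Benjamini-Hochberg over all tested genes, with the call rule given above. SE values came from the F statistic, as the size of the log2 change over the root of F. Exon overlaps, lengths and GC content came from GENCODE 44 mapped to GRCh37. The distance between profiles used log2 CPM with a prior count of 2. Counting error alone enters the limits for a count of 0.

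Members and lists were chosen with earlier results of these data known. Named are all members, up to 5 called genes of each list and direction, list members that share a complex with an IRF, tested genes within 100 kb of a called member, and the 5 nearest profiles. Some genes that this rule covers are not reported here. Genes named outside this rule are marker genes and some list members. The latter are cited for low counts, for a high level without a call, for the adjusted p alone or for being on another list. The others are those said to be chosen after their values were seen. Alternatives were DESeq2 1.42.0, other scalings, filters, thresholds and lengths, a GC and length trend removed by loess (span 0.3), the replicate number as a block, and each library left out. The fits were tested on simulated data.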

Additional observations from a re-analysis of the deposited data

How the results depend on the processing

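IRF1 and IRF8 were called under each of 13 alternatives, with log2 fold changes of 5.76 to 5.91 and 1.06 to 1.15. IRF7 (0.60 to 0.97), IRF2 (-0.63 to -0.31) and IRF5 (-0.80 to -0.59) kept their direction and were called under none of these 13. All 13 kept both thresholds of a call. Without the fold change threshold 3 members were called, the third being IRF7. The adjusted p of IRF7 was 0.0333 with the GC and length trend removed. IRF3 reversed to -0.11 with the GC and length trend removed, with and without the replicate block, and ranged from -0.0398 to 0.29 with each library left out, the lowest being without replicate 2 of the unstimulated group. IRF9 passed the thresholds at 1.45 without the filter on low counts, and ranged from 0.22 to 2.15 with each library left out. It was not tested when 10 counts were required in every library. Leaving out a library leaves 1 sample in its group, which is then assumed to vary like the others. Without the filter the prior degrees of freedom were infinite, so those p-values are not comparable.

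The labels do not say that the replicate number marks a shared batch. Deviations of same-numbered libraries from their group means correlated across genes at 0.415. With the replicate number as a block IRF9 passed the thresholds at 1.45 (adjusted p = 0.0126, against 0.151 in the fit without a block). It also passed at 1.32 with the block and the GC and length trend removed. IRF2 was lower on the adjusted p-value alone with the block, at -0.47 (adjusted p = 0.0201, against 0.0162 to 0.327 over its alternatives), and IRF5 with the block and the trend removed, at -0.77 (adjusted p = 0.0214, against 0.0214 to 0.339). Neither reached the fold change threshold.

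Over all genes 1079 were called, against 717 with the GC and length trend removed (410 higher and 307 lower, against 427 and 652), 2963 without a fold change threshold, 686 at an adjusted p of 0.01 and 866 to 1684 with each library left out, the highest without replicate 1 of the IFNγ group. The cause was not tested. Among activating kinases and adaptors 0 were called, 2 without a fold change threshold and 0 to 1 with each library left out. Among partners 1 was called, and 5 without a fold change threshold. Without that threshold 9.02% of all tested genes were higher and 11.0% lower. ISGF3 targets called were 3, against 5 with upper quartile scaling, with the block, with the GC and length trend removed or with both, 6 without the filter, and 2 with DESeq2 or at an adjusted p of 0.01. The share of IRF1 in the family after IFNγ was 67.6%, against 77.9% with the longest, 91.7% with the mean and 75.5% with the main transcript length, and 67.9% with the GC and length trend removed, where only the length or trend changed. At the lowest depth, 3 counts are 0.418 CPM, and IRF9 had as few as 7 counts in a library.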
